A study of Mus musculus with 2 samples.

Results

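The nuclear genes for subunits of respiratory complexes II to V were followed through embryonic liver RNA. They were taken as the protein-coding genes whose symbols name a succinate dehydrogenase subunit (Sdha to Sdhd), a subunit of the cytochrome c reductase (Uqcr genes and Cyc1), cytochrome c (Cycs), a numbered subunit of cytochrome c oxidase (Cox4 to Cox8 families) or a subunit of ATP synthase (Atp5 genes). The rule found 49 genes among 43346 Ensembl genes, of which 21474 were protein-coding. They fall into 4 genes of complex II, 9 of complex III, the electron carrier Cycs, 18 of complex IV and 17 of complex V. The samples were 2 libraries of a single group, healthy livers of B6NCrl mouse embryos at day 11.5, each pooled from males and females and with no genetic change or treatment. The labels call the libraries biological replicates, and for replicate 1 they give 109 embryos. Each was built by a SmartSeq protocol, which copies polyadenylated RNA and amplifies it by PCR, from RNA equal to the content of 1 cell, although the source was pooled tissue. The labels also describe both libraries as total RNA-seq, so the RNA fraction is described in more than 1 way. With 1 group of 2 libraries no test between conditions exists, so the results are levels, their spread and a rule of size.

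Respiratory chain complexes pass electrons to oxygen in the inner mitochondrial membrane and build the proton gradient that drives ATP synthesis. Complex II oxidises succinate and is wholly encoded in the nucleus. Complex III hands electrons to cytochrome c, complex IV passes them to oxygen, and complex V, ATP synthase, uses the gradient. The cores of complexes III, IV and V combine subunits made from mitochondrial DNA with the nuclear subunits described here. Several complex IV subunits exist as a common form and as a form known from heart and muscle, testis or lung. Liver at this stage holds hepatoblasts beside maturing red cells, which later lose their mitochondria.

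The total expected count, the deposited estimate of reads per gene summed over all rows, was 33289699 in replicate 1 and 32607453 in replicate 2. Levels are in TPM, a relative abundance that divides reads by effective gene length and scales each library to the same sum, so levels of different genes can be compared. The share of spike-in RNAs in all TPM was 5.83% in replicate 1 against 7.68% in replicate 2. The tissue label was checked against markers. Of 12 hepatoblast genes 11 had a TPM of 1 or more in both libraries, as had all 11 matched red cell genes. Of 22 heart and muscle genes 4 passed in both and another 8 in replicate 2 alone, with summed TPM of 143.4 in replicate 1 and 438.2 in replicate 2. In pooled tissue a lower level in every cell and fewer cells of a type cannot be told apart.

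Of the 49 subunit genes 43 had a TPM of 1 or more in both libraries, against 27.3% of all protein-coding genes and 62% of those that passed in either library. Their median was 597.2 TPM in replicate 1 and 544.5 TPM in replicate 2, and the median of their mean levels was 569.5 TPM, against 18.88 TPM over protein-coding genes detected in either library. The most similar groups stood lower, at 313.6 TPM for the 37 nuclear complex I subunits and 135 TPM for 77 mitochondrial ribosomal protein genes. In both libraries 38 subunit genes were above 100 TPM, 24 above 500 TPM and 5 above 1000 TPM. The level above 500 TPM was reached in both libraries by 1.13% of all protein-coding genes. The 5 that had no read in either library were Cox6a2, Cox7b2, Cox8b, Cox8c and Atp5s, and Cox7a1 was detected in replicate 1 alone.

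**Figure D1:**
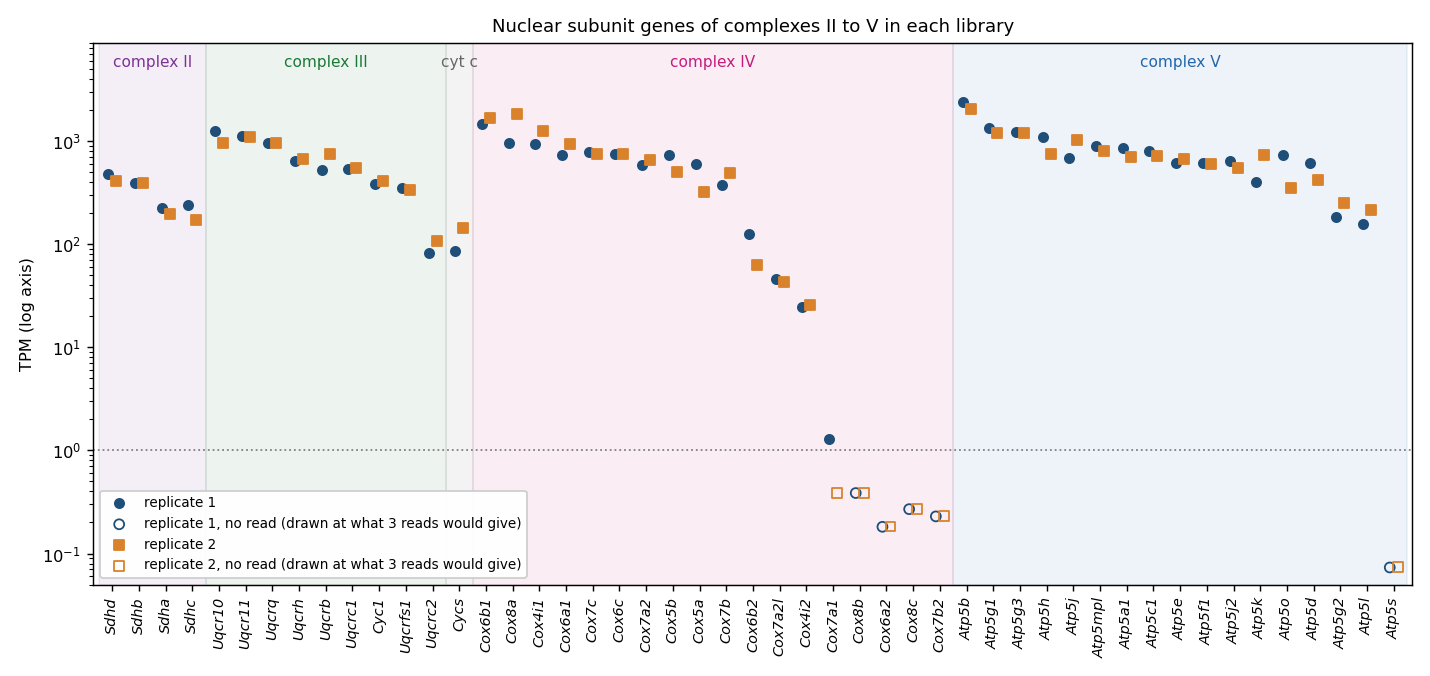
TPM (log axis) of each of the 49 subunit genes in replicate 1 (circles) and replicate 2 (squares), ordered within each complex by mean level; open symbols are genes without a read, drawn at the TPM that 3 reads would give, and the dotted line marks 1 TPM. Most genes lie between 100 and 2393 TPM, and the lowest symbols are the tissue-type complex IV forms and Atp5s.

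Together the subunit genes took 2.86% ± 0.0055 of all TPM (SD, n = 2). Complex V held the largest part of it, 1.28% ± 0.0723, then complex IV with 0.868% ± 0.0853, complex III with 0.581% ± 0.0002 and complex II with 0.126% ± 0.0114. Cycs added 0.0116% ± 0.0041. The sum was nearly the same in both libraries, although complex V was higher in replicate 1 and complex IV higher in replicate 2. Of the 43 genes detected in both libraries, 72.1% had an effective length under 1000 bases, against 18.2% of detected protein-coding genes. Level fell with effective length among the subunit genes (Spearman rho -0.44 across 43 genes, a description, since genes are not independent) and among all protein-coding genes detected in both (rho -0.57 across 5870 genes).

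The genes of complex II had the lowest median of the 4 complexes, 301.8 TPM, against 635.3 TPM in complex III, 444.4 TPM in complex IV and 643.8 TPM in complex V. Without the tissue-type forms the complex IV median was 752.6 TPM, the highest of the 4. Both orders hold for TPM only, which divides reads by effective length. The median effective length was 1113.6 bases in complex II, 446.7 in complex III, 462.8 in complex IV and 616.3 in complex V. On CPM, reads scaled to the library total without division by length, complex II was not the lowest in either library. Sdhd, a membrane anchor subunit that holds part of the ubiquinone site, had 476.8 TPM in replicate 1 and 411.4 TPM in replicate 2. Sdhb, the iron-sulphur subunit, had 392.3 and 392.9 TPM. Sdha, the flavoprotein that oxidises succinate, had 224.9 and 197 TPM. Sdhc, the other anchor, had 241.5 and 172.8 TPM. All 4 genes were thus within 172.8 to 476.8 TPM. By TPM Sdhd and Sdhb stood above Sdha and Sdhc in both libraries. The order of Sdha and Sdhc by TPM was not resolved, with means of 210.9 ± 19.7 and 207.2 ± 48.5 TPM (SD, n = 2). By CPM Sdha was the highest, with 518.8 in replicate 1 and 475.5 in replicate 2. Sdhd had 502.9 and 440.3 CPM, Sdhb 362 and 369.2 CPM and Sdhc 192 and 123.1 CPM. All but Sdhc exceeded the middle gene of complex III by CPM. That gene was Uqcr11 at 342.1 CPM in replicate 1 and Uqcr10 at 294.7 CPM in replicate 2.

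In complex III 3 of the small subunits had the highest TPM. Uqcr10 had 1252 TPM in replicate 1 and 960.7 TPM in replicate 2. Uqcr11 had 1109.9 and 1083.4 TPM, and Uqcrq, which binds near cytochrome b, 947.6 and 959.1 TPM. These 3 exceeded every other nuclear complex III gene in both libraries. Lower in the order, after Uqcrh, Uqcrb and Uqcrc1, came the catalytic subunits, with Cyc1, cytochrome c1, at 380.2 and 410.2 TPM, and Uqcrfs1, the Rieske iron-sulphur protein, at 349.4 and 335.6 TPM. The core proteins differed from each other. Uqcrc1 had 531.1 and 544.5 TPM, whereas its partner Uqcrc2 had 82.1 and 106.9 TPM, the lowest of the complex in each library. On CPM, which keep gene length, Uqcrc1 led the complex with 708.1 in replicate 1 and 745.7 in replicate 2. Uqcr10 had 379.1 and 294.7 CPM, so the lead of the small subunits holds for TPM only. Exons of Uqcrc2 overlap those of Pdzd9 on the opposite strand, a gene with no read in either library. The hinge subunit Uqcrh and the small subunit Uqcrb had mean levels of 650.2 ± 22.5 and 635.3 ± 153.5 TPM.

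Cycs encodes cytochrome c, which carries electrons from complex III to complex IV and is known for its release in apoptosis. It was listed at 86.7 TPM in replicate 1 and 144.5 TPM in replicate 2, from 7751 and 9478 expected reads, and 87% of detected protein-coding genes lay lower. This level cannot be read on its own, because its coding sequence has near-identical copies elsewhere in the genome. Gm10053, a protein-coding gene on chromosome 19 from 24875686 to 24876631 (mm10), is identical to it over all 315 coding bases. Gm10108, a processed pseudogene on chromosome 5 from 13121448 to 13121766, has 2 differences over the same span. Gm10053 was listed at 370.7 TPM in replicate 1 and 434 TPM in replicate 2, and Gm10108 at 612 and 755.5 TPM. The coding bases 1 to 120 of the 3 genes, from the GENCODE M21 transcripts on GRCm38, show how little tells reads of this stretch apart. The leading Cycs transcript is 3123 bases long, and its parts outside the 315 coding bases were not compared with the copies. Capitals mark the 2 positions in this stretch at which Gm10108 differs, G4A and G44A, counted from the A of the start codon with the Cycs base first.
Cycs: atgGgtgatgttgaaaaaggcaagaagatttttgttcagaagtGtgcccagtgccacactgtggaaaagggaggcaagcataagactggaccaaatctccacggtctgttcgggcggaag
Gm10053: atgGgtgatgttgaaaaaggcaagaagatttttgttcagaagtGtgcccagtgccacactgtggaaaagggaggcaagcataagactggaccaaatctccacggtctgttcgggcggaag
Gm10108: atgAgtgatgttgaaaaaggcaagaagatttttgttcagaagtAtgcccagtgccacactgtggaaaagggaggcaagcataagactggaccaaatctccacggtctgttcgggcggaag

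Cycs thus held 8.11% of the TPM listed for itself and its copies in replicate 1 and 10.8% in replicate 2. By expected reads its share was 36.9% and 37.6%, since the Cycs row has a far longer effective length than its copies. The sum of Cycs and copies was 1069 TPM in replicate 1 and 1334 TPM in replicate 2. That sum rests on the short effective lengths of the copies. With all of these reads placed on the Cycs row at its own length, a calculation added after seeing the data, the level would be 235.2 TPM in replicate 1 and 383.8 TPM in replicate 2. The level of Cycs thus depends on where the reads belong. How many of these reads came from Cycs RNA was not tested.

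The question of copies reached beyond Cycs, and it was asked of each subunit gene by aligning its coding sequence to all annotated transcripts. At 95% identity or more over 100 bases or more, 16 of the 49 genes had copies in the tables, 32 copies in all, of which 29 are annotated as processed pseudogenes, transcribed ones included. Other protein-coding genes were not searched for copies, so the count is not shown to be particular to the subunit genes. The copies together held 2941 TPM in replicate 1 and 3378 TPM in replicate 2, or 10.3% and 11.8% of the sum of the subunit genes. Of the 32 copies, 6 were listed at 100 TPM or more in both libraries. For 11 of the 16 genes the copies held under 3% of the sum in each library, so adding the copies would change the listed level of those genes little. Reads of a copy that were listed under the subunit gene would not show in this share.

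Atp5l, subunit g of ATP synthase (chromosome 9, 44912557 to 44920742, minus strand), was the gene most outweighed by a copy after Cycs. It had 155.8 TPM in replicate 1 and 215 TPM in replicate 2, while its copy Gm10221 (chromosome 5, 24581554 to 24581862) was listed at 831.2 and 989.7 TPM. Its coding sequence of 309 bases is identical in both genes, and the first 120 bases are shown without capitals because no position differs.
Atp5l: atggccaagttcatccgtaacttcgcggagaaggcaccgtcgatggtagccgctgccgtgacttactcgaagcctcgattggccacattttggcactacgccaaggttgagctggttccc
Gm10221: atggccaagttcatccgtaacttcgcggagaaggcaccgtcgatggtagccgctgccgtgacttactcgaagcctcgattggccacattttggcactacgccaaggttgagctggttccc

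Atp5l held 15.8% of the summed TPM of itself and its 6 copies in replicate 1 and 17.8% in replicate 2. As deposited, Atp5l was the lowest detected gene of complex V, yet the sum with its copies was 988.8 and 1207 TPM. With all of these reads placed at the length of Atp5l the values were 808.6 and 992.3 TPM, still above the complex V medians of 692.1 and 707.4 TPM. Atp5g2 was at 181.8 and 249.4 TPM beside 250.8 and 347.9 TPM in its copies, which share all 438 of its coding bases. Cox7c had 777 and 753.2 TPM, and its copies 592.1 and 611.4 TPM. Most of the TPM in Cox7c copies came from Gm12338, whose effective length of 93 bases turns few reads into a high TPM, so Cox7c kept 85.2% and 84.9% of the expected reads. Atp5g1 had 1353 and 1196 TPM, against 232.6 and 185.2 TPM in its copy Gm10039. The levels of Cycs, Atp5l, Atp5g2, Cox7c and Atp5g1 are therefore uncertain, and so are their TPM sums with the copies, because effective lengths differ between the rows.

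**Figure D2:**
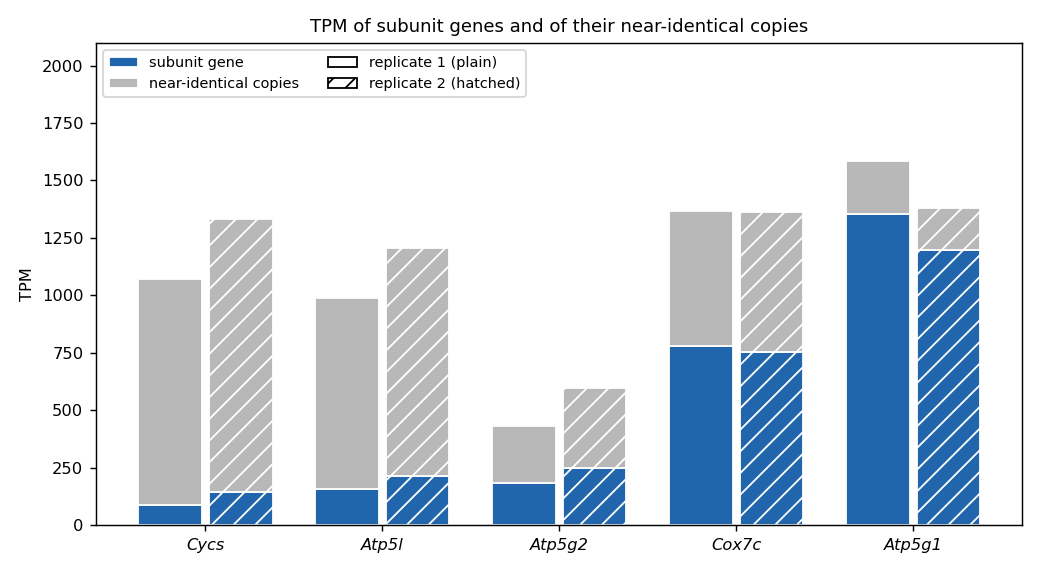
TPM of 5 subunit genes (blue) and, stacked on top, of their near-identical copies (grey) in replicate 1 (plain bars) and replicate 2 (hatched bars). The copies hold most of the TPM at Cycs and Atp5l, more than the subunit gene at Atp5g2, and less than the subunit gene at Cox7c and Atp5g1.

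Complex IV was led by the common forms Cox6b1, Cox8a and Cox4i1. Cox6b1, which lies on the side that faces cytochrome c, had 1448.5 TPM in replicate 1 and 1692.5 TPM in replicate 2. Cox8a, a small membrane subunit, had 951 and 1812.6 TPM. Cox4i1, the subunit through which ATP is known to regulate the enzyme, had 939.1 and 1255.4 TPM. All 3 were higher in replicate 2, and Cox8a by 0.90 on the log2 scale. Its mean of 1381.8 ± 609.3 TPM (SD, n = 2) had the largest SD among the subunit genes, and its place relative to Cox6b1 and Cox4i1 is not resolved. Exons of Cox4i1 overlap those of Emc8 on the opposite strand, which had 400.1 and 234.8 TPM. Cox6a1, Cox7c, Cox6c, Cox7a2, Cox5b, Cox5a and Cox7b had mean levels from 430.8 TPM (Cox7b) to 828.7 TPM (Cox6a1). Cox7a2l, a relative of subunit 7a known to join complex III to complex IV in supercomplexes, had 46 TPM in replicate 1 and 43.4 TPM in replicate 2.

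Tissue-type forms of complex IV subunits were next compared with the common forms. The common form was higher than its tissue-type relative in every pair and both libraries. Cox6a2 and Cox8b, forms of heart and skeletal muscle, and Cox7b2 and Cox8c, forms known from testis, had no read in either library. Set against the 3 reads that a count of 0 allows per library, Cox6a1 was at least 4014-fold higher than Cox6a2 in replicate 1 and at least 5083-fold in replicate 2. Cox7b was at least 1640-fold and 2108-fold higher than Cox7b2. Cox8a was at least 2464-fold and 4668-fold higher than Cox8b, and at least 3533-fold and 6692-fold higher than Cox8c. These limits cover read counting only, since reads copied by PCR from a molecule are not independent of each other. Cox7a1, the heart and muscle form of subunit 7a that brown fat also uses, reached 1.28 TPM with 10 reads in replicate 1, and replicate 2 had none. Cox7a2 had 580.5 and 652.7 TPM. Cox7a1 made up 0.22% of the pair's TPM in replicate 1, and Cox7a2 was at least 1694-fold higher in replicate 2.

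Markers of the tissues that use these forms were read beside them. None of 8 testis germ cell genes had a read, and none of 5 brown fat genes reached 1 TPM. Of the 22 heart and muscle genes 4 passed 1 TPM in both libraries, 8 in replicate 2 alone and 10 in neither, with summed TPM of 143.4 in replicate 1 and 438.2 in replicate 2. The 4 detected in both were Tnni1 (56.3 and 37 TPM), Actc1 (43.5 and 30.3 TPM), Des (36.2 and 23.5 TPM) and Myh6 (6.62 and 38.7 TPM). Of the 10 listed genes with a mean TPM of 10 or more, 0 were 2-fold higher in replicate 1 and 7 in replicate 2. Over all genes at that level the shares were 25.8% and 25.2%. Myh7, Myl3, Nppa, Nppb and Ryr2 were at 0 in both libraries, and Myl7, an atrial light chain, was at 0 in replicate 1 and 93.5 TPM in replicate 2. The part of such cells in the Cox7a1 reads was not tested.

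Detected tissue-type forms were Cox4i2 and Cox6b2. Cox4i2 (chromosome 2, 152754173 to 152765037, plus strand), known from lung and oxygen-sensing vascular cells, had 24.7 TPM from 459 reads in replicate 1 and 25.5 TPM from 470 reads in replicate 2. It made up 2.28% ± 0.408 of the Cox4i1 and Cox4i2 sum (SD, n = 2). Its level hardly differed between the libraries. By reads its share was 2.52% in replicate 1 (exact 95% interval 2.3% to 2.76%) and 1.96% in replicate 2 (1.79% to 2.15%), intervals that cover counting error only. Of 10 pericyte and smooth muscle genes 2 passed 1 TPM in both libraries, 2 in replicate 1 alone and 2 in replicate 2 alone, with summed TPM of 48.9 in replicate 1 and 156 in replicate 2. Rgs5 had 19.3 and 0 TPM and Pdgfrb 11 and 0.01 TPM. Acta2 had 13.9 and 91.9 TPM, Ndufa4l2 0 and 48.2 TPM, Tagln 0 and 6.94 TPM and Abcc9 3.46 and 8.1 TPM. Cspg4 and Myh11 were at 0 in both. The listed genes thus differed between the libraries in both directions, and the part of such cells in its level was not tested.

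Cox6b2 (chromosome 7, 4751792 to 4753094, minus strand), a form known from testis, had 126.8 TPM from 1699 reads in replicate 1 and 63.4 TPM from 843 reads in replicate 2. It made up 8.05% of the Cox6b1 and Cox6b2 sum in replicate 1 and 3.61% in replicate 2, or 5.83% ± 3.14 (SD, n = 2). The share thus varied by more than a factor of 2 between the libraries while testis markers had no read in either. No other annotated gene shares exon bases with Cox6b2, and no near-identical copy of it was found.

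Within the coding sequence, reads of the paralogues are told apart more easily than those of the pseudogene copies. The coding sequences of Cox4i1 and Cox4i2 are 69% identical over 487 aligned bases, with at most 14 identical bases in a row. Those of Cox6b1 and Cox6b2 are 63.4% identical over 254 aligned bases, again with at most 14 in a row. The most similar 60 bases of each pair without a gap are given, with capitals at the positions that differ, 12 in the Cox4i pair and 13 in the Cox6b pair (GENCODE M21 transcripts, GRCm38).
Cox4i1: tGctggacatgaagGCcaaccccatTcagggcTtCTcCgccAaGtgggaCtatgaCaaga
Cox4i2: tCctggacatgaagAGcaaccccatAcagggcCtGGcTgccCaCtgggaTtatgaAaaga
Cox6b1: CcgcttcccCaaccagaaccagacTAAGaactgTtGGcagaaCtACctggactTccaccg
Cox6b2: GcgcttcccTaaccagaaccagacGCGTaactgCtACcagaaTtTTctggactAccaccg

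**Figure D3:**
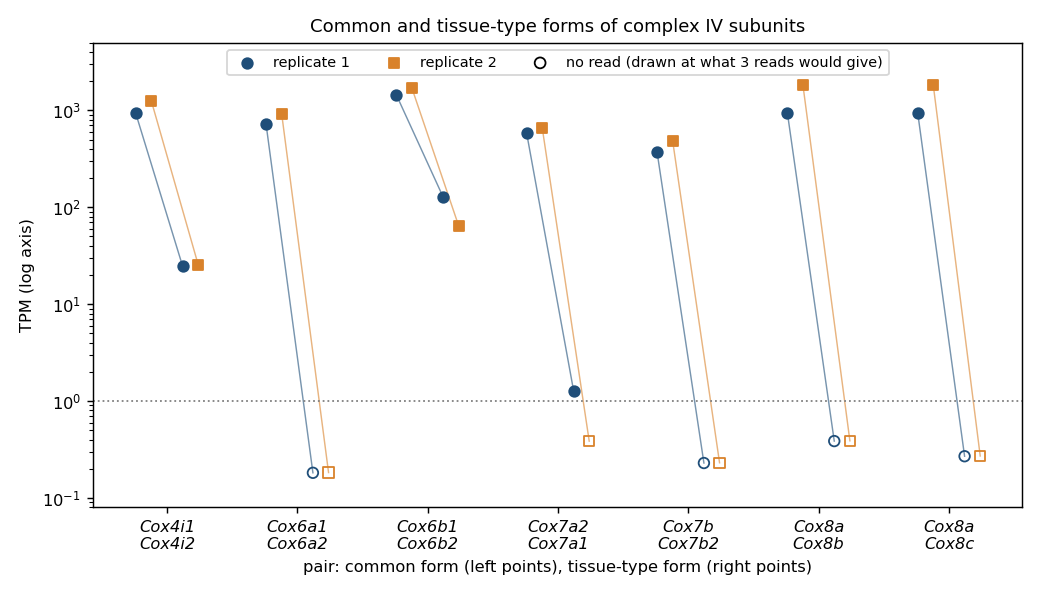
TPM (log axis) of the common form (left points) and the tissue-type form (right points) of 7 complex IV pairs in replicate 1 (circles) and replicate 2 (squares), with a line joining the forms of each library; open symbols are genes without a read, drawn at the TPM of 3 reads. Cox4i2 at 24.7 and 25.5 TPM and Cox6b2 at 126.8 and 63.4 TPM are the tissue-type forms above 10 TPM.

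ATP synthase held the highest single gene. Atp5b, the catalytic beta subunit of the F1 head (chromosome 10, 128083273 to 128090391, plus strand), had 2393 TPM in replicate 1 and 2043 TPM in replicate 2 and ranked 36 among protein-coding genes by mean level. The other head subunits were lower. Atp5a1, the alpha subunit, had 855.5 and 707.4 TPM, less than Atp5b in each library although the head contains equal numbers of both. Atp5c1, the central shaft subunit gamma, had 803.6 and 724 TPM. The delta subunit Atp5d and the epsilon subunit Atp5e had means of 519.4 ± 135.1 and 643.8 ± 45.8 TPM (SD, n = 2).

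The membrane ring of ATP synthase is built of subunit c, for which 3 genes encode the same mature protein behind different import sequences. Atp5g1 had 1353 TPM in replicate 1 and 1196 TPM in replicate 2, Atp5g3 had 1230.3 and 1204.1 TPM, and Atp5g2 had 181.8 and 249.4 TPM. Atp5g1 and Atp5g3 were next after Atp5b in complex V, and their order changed between the libraries. Of the ring TPM Atp5g1 made up 47% ± 2.68, Atp5g3 45% ± 0.674 and Atp5g2 8% ± 2.01 (SD, n = 2). The 3 coding sequences are 70.7% to 74.6% identical to each other, so confusion among them is less likely than with the copies of Atp5g1 and Atp5g2 given above.

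Stalk genes showed the widest spread between libraries in complex V. Atp5h, subunit d, had 1093.8 TPM in replicate 1 and 746.3 TPM in replicate 2. Atp5j, coupling factor 6, had 692.1 and 1035.7 TPM, the other way round. Atp5o, the subunit that ties the stalk to the head and confers oligomycin sensitivity (chromosome 16, 91925214 to 91931687, minus strand), had 730.3 and 350.3 TPM. Atp5f1, subunit b, differed little, with 610.2 and 595.1 TPM. Among the membrane accessory subunits Atp5k, subunit e, had 405 and 734.1 TPM, while Atp5j2, subunit f, had 641.1 and 546.3 TPM and Atp5mpl 893.6 and 795.5 TPM. Atp5s, named for ATP synthase but not a structural subunit of the enzyme, had no read in either library.

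Differences between the libraries were then set against those of all genes. The measure is the log2 ratio of TPM, replicate 1 over replicate 2, with 1 added to each value and centred on the median of all genes with a mean TPM of 10 or more. Of 43 subunit genes in this range 2 were 2-fold or more higher in replicate 1, Atp5o (log2 ratio 1.08) and Cox6b2 (log2 ratio 1.01), and 0 in replicate 2. The call of Cox6b2 lay at the edge of the rule, with a log2 ratio of 0.998 on posterior mean TPM and 0.993 on CPM of expected counts, while that of Atp5o held on both. Over all 6801 genes in the range 25.8% were higher in replicate 1 and 25.2% in replicate 2, or 51.1% in either direction. Among genes at a mean of 100 TPM or more 11.4% were higher in replicate 1, 7.22% in replicate 2 and 18.7% in either, and Atp5o was the only subunit gene at that level to pass. The median absolute log2 ratio was 0.25 over the subunit genes and 1.03 over all genes. Of the 43 subunit genes 37 differed by less than 1.5-fold. The share of all genes within 1.5-fold was not computed, so this count does not set the subunit genes apart.

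The comparison was repeated within ranges of level. Among genes with a mean TPM of 500 to 1000 the median absolute log2 ratio was 0.22 for 20 subunit genes and 0.25 for all 163 genes, and at 1000 TPM or more it was 0.23 for 8 subunit genes and 0.21 for all 151. At 100 to 500 TPM it was 0.35 for 11 subunit genes and 0.55 for all 1181. At 10 to 100 TPM it was 0.23 for the 4 subunit genes Uqcrc2, Cox6b2, Cox7a2l and Cox4i2, and 1.39 for all 5306. From 500 TPM up, where 28 of the 43 lie, subunit genes had medians close to those of all genes of the same range, and below 500 TPM, where 15 lie, their medians were lower. Genes were not matched by level within a range. Whether the place of the subunit genes within these wide ranges accounts for the lower medians was not tested. Atp5o was 1 of only 3 genes past 2-fold among the 163 at 500 to 1000 TPM. Its exons overlap those of the antisense genes D430001F17Rik, at 0.82 and 1.63 TPM, and Gm15976, which had no read. They also share 243 bases with another protein-coding gene on the same strand that carries the symbol Atp5o in the M21 annotation and was not analysed here.

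With centring on the spike-in RNAs instead, the median log2 ratio of the subunit genes was 0.45 rather than 0.06, 3 of them were higher in replicate 1 and 0 in replicate 2. Under that centring 62.5% of all 2-fold calls lay in replicate 1, against 50.6% with the median of all genes. Across the 43 genes the levels in the libraries followed each other with Pearson r 0.95 and Spearman rho 0.90 on log2 values, against r 0.76 and rho 0.73 across 5870 protein-coding genes. These values run across genes, which are not independent replicates, and the genes of each set share their libraries. The 5870 genes reach down to 1 TPM and were not matched to the subunit genes in level. Since differences between the libraries vary with level, the higher r does not set the subunit genes apart.

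**Figure D4:**
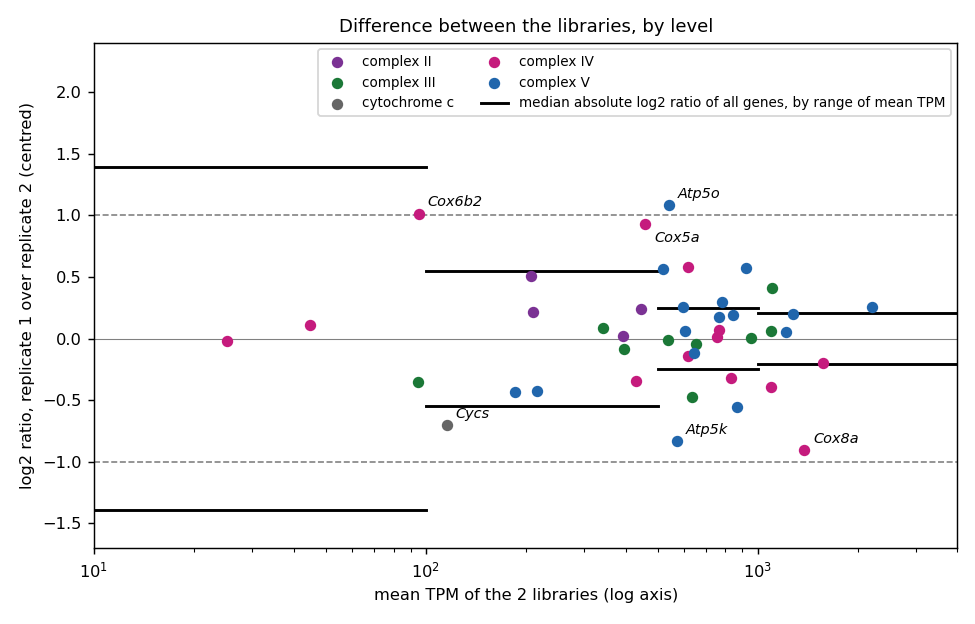
Centred log2 ratio of replicate 1 over replicate 2 for 43 subunit genes against their mean TPM (log axis), coloured by complex; black bars give the median absolute ratio of all genes in 4 ranges of level, drawn on both sides of 0, and dashed lines mark 2-fold. Atp5o and Cox6b2 lie past the upper dashed line and no gene lies past the lower one.

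The transcript tables gave the leading transcript, the one with the highest TPM, of 34 subunit genes with more than 1 annotated transcript. In 33 it was the same in both libraries, and in 1 it differed, against 37.6% of all genes with a mean TPM of 10 or more and 14.2% of those at 100 TPM or more. These backgrounds were not matched to the subunit genes in level, so the lower share is not shown to be particular to them. In 18 of the subunit genes the leading transcript held over 90% of the gene's abundance in both libraries. The share of all genes that pass this limit was not computed. The gene whose leading transcript differed between the libraries was Atp5j. In replicate 1 its leading transcript was a retained-intron form of 526 bases with 73.4% of the gene, which held 42% in replicate 2. In replicate 2 the leading one was the coding form Atp5j-201 of 809 bases with 45.3%, which held 19.4% in replicate 1. Exons of Atp5j overlap those of Gabpa on the opposite strand, a gene with 72.4 and 46.8 TPM. The leading form of Atp5f1 in both libraries was annotated as a target of nonsense-mediated decay, with 64.3% and 62.8%, and that of Cox5b as a processed transcript, with 53.8% and 63.4%. For Cox6b2 the same coding form led with 57.6% in replicate 1 and 99.3% in replicate 2.

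Overlap with neighbours touches 13 of the 49 genes, whose exons share bases with another annotated gene, in 12 cases on the opposite strand. The share of all protein-coding genes with such an overlap was not computed, so the count is not shown to be particular to them. Whether reads were counted by strand is not given in the sources used here, so reads in shared bases cannot be assigned with certainty. Among the detected genes Atp5a1 overlaps Haus1 (94.5 TPM in replicate 1 and 155.3 TPM in replicate 2), and Atp5f1 overlaps Wdr77 (75.6 and 48.6 TPM). The 49 genes lie on 19 chromosomes, with 6 on chromosome 7 and 1, Cox7b, on the X chromosome.

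The mitochondrially encoded partners of these subunits were at higher levels. Cytochrome b, mt-Cytb, had 2348.9 TPM in replicate 1 and 2555.4 TPM in replicate 2, or 4.13 ± 0.414 times the median of the detected nuclear complex III genes (SD, n = 2). In complex IV mt-Co2 had 2523.5 and 2447.1 TPM, mt-Co1 2045.1 and 2078 TPM and mt-Co3 1358.3 and 1721.7 TPM. The first of these was 3.61 ± 0.203 times the nuclear median. No nuclear complex IV gene exceeded any of the 3 in both libraries, although Cox6b1 was above mt-Co3 in replicate 1 and Cox8a above it in replicate 2. The ATP synthase genes mt-Atp6 and mt-Atp8 had 7004 and 7059 TPM, and 5024 and 5233 TPM. They were 9.86 ± 0.0101 and 7.19 ± 0.174 times the median of the detected nuclear complex V genes, and both were above Atp5b. mt-Atp6 and mt-Atp8 overlap on the mitochondrial genome and reads can also match nuclear copies of mitochondrial DNA, so these levels are uncertain.

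Assembly and associated factors of complexes II to V stood far lower than the subunits. Of 42 matched genes 28 were detected in both libraries, 4 in replicate 1 alone, 5 in replicate 2 alone and 5 in neither, and their median was 32.2 TPM. Of the 30 with a mean of 10 TPM or more 8 were 2-fold higher in replicate 1 and 5 in replicate 2, beside the 25.8% and 25.2% of all genes. The factors of complex II were Sdhaf4 at 1.68 TPM in replicate 1 and 28.2 TPM in replicate 2, Sdhaf2 at 0.01 and 28.9 TPM, Sdhaf1 at 15.4 and 0 TPM, and Sdhaf3 at 0 and 9.12 TPM. None of these 4 was above 10 TPM in both libraries, whereas no complex II subunit was under 172.8 TPM. In complex III Uqcc2, which stabilises new cytochrome b, led with 399.6 and 453.3 TPM, followed by Uqcc3 with 58.5 and 98.6 TPM and Uqcc1 with 54.1 and 29.2 TPM, and 2 of 6 were under 1 TPM in both libraries. In complex IV the copper chaperone Cox17 had 374.2 and 644.7 TPM, Slirp, which protects mitochondrial messenger RNA, 337.2 and 331.7 TPM, and Cox14 160 and 277 TPM, and 3 of 26 were under 1 TPM in both.

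In complex V the list included abundant associated proteins that are not assembly chaperones. Atpif1, the inhibitor that stops ATP synthase from running backwards, had 1996 TPM in replicate 1 and 2228 TPM in replicate 2, close to Atp5b. Usmg5, a small membrane subunit of ATP synthase, had 1331 and 1157 TPM, in the range of Atp5g1 and Atp5g3. It is counted with the associated factors here because its symbol does not start with Atp5. The third highest, Fmc1, had 221.6 and 47.6 TPM, and none of the 6 was under 1 TPM in both libraries. Without Atpif1 and Usmg5 the median of the assembly factors was 28.3 TPM.

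**Figure D5:**
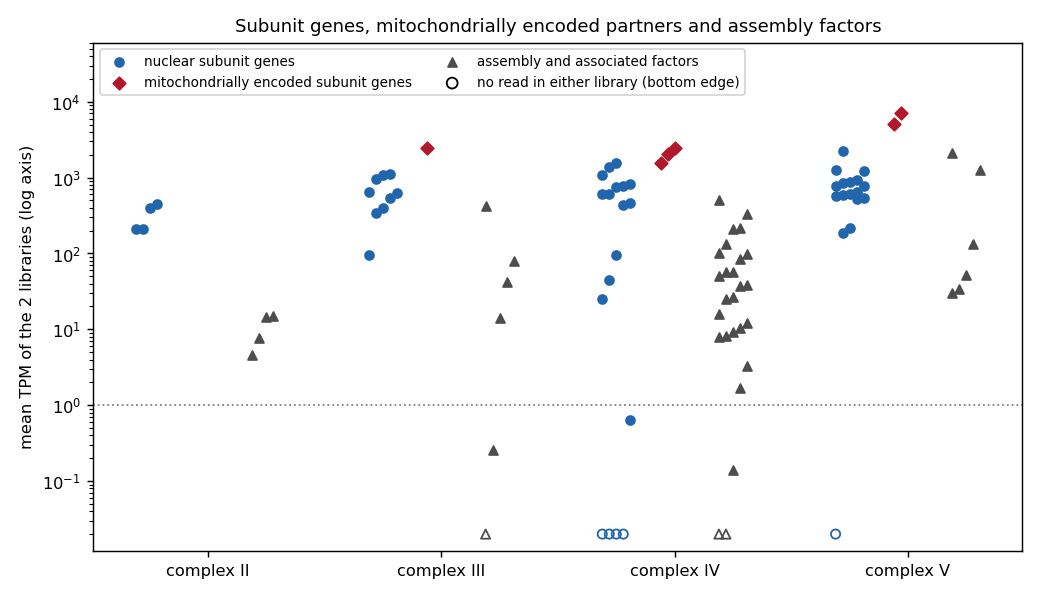
Mean TPM of the 2 libraries (log axis) of nuclear subunit genes (blue circles), mitochondrially encoded subunit genes (red diamonds) and assembly and associated factors (grey triangles), by complex; open symbols at the bottom edge are genes without a read in either library. Mitochondrially encoded genes lie at the top of complexes III and V, and the triangles above 1000 TPM in complex V are Atpif1 and Usmg5.

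Of the carriers that feed ATP synthase, Slc25a5, an adenine nucleotide exchanger, had 1170.6 TPM in replicate 1 and 1060.3 TPM in replicate 2. The phosphate carrier Slc25a3 had 314.8 and 262.8 TPM, and Slc25a4, the exchanger form of heart and muscle, 299.5 and 192.2 TPM. Slc25a31, the testis form, and the mitochondrial creatine kinases Ckmt1 and Ckmt2 had no read in either library. Among 12 regulators of nuclear respiratory genes 5 were detected in both libraries and 3 in neither. Tfam, which packages and transcribes mitochondrial DNA, had 131.5 and 157.4 TPM, Gabpa, which binds promoters of respiratory genes, 72.4 and 46.8 TPM, and Nrf1, also a factor of such promoters, 45.9 and 59.5 TPM. The coactivators Ppargc1a and Ppargc1b and the receptor Esrra had no read in either library. With RNA equal to the content of 1 cell per library, this does not show that they are absent.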

How the data were processed

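RNA of 2 libraries of 1 group was analysed. The deposited tables per gene and per transcript hold expected counts, estimated reads that need not be whole, and deposited TPM values, per the file headers. Also used were each row's deposited effective length (in bases) and, for transcripts, the deposited percent of their gene. The assembly is mm10 per the labels, with GENCODE M4. Aligner, quantification program and strand setting: not given in the sources used here. Deposited posterior mean TPM served as an alternative.

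Gene symbols, types and coordinates came from GENCODE M21, matched by Ensembl identifier (42462 of 43346 rows). A gene was detected at a TPM of 1. A gene with no read was limited to 3 reads, which is 0.0901 CPM for replicate 1 and 0.092 CPM for replicate 2. Ratios used a pseudocount of 1, a mean TPM of at least 10 and a 2-fold rule without a test, and understate differences of low genes. Over 11205 genes chi-square per degree of freedom between the libraries was 814, far above sampling noise, and both were kept as separate libraries. Shares have exact Clopper-Pearson 95% intervals. Copies were found with BLAST 2.17.0 and pairwise alignments with Biopython 1.88, and tables were made with pandas 2.3.3 and scipy 1.17.1 in Python 3.11.15. The ratio step was tested on simulated data. A check of promoter motifs was not made, because promoter sequences matched fewer than 80% of the genes.

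The genes and lists were chosen with earlier results of these data known. Named were the 3 highest and the lowest of each complex, paralogue pairs, subunit c genes, Cycs, Cyc1, genes under 1 TPM, genes past 2-fold or with different leading transcripts, and the 3 highest of each partner list; others named were chosen after their values were seen. Alternatives covered the estimate, pseudocount, filter, centring, denominator, copies and each library left out.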

Additional observations from a re-analysis of the deposited data

How the results depend on the processing

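Of 82 alternative values for 22 results, 64 stayed within the spread between the libraries or, for counts, within 1.5 times, 18 moved and 0 reversed. The cause of these moves was not tested, except where the alternative itself changes the genes or the denominator. Shares of TPM with 1 library left out could only count as unmoved. With 2 libraries, each library's share lies within 1 SD of their mean, so those values say nothing on stability. The median log2(TPM + 1) of the subunit genes, 9.09, was 9.24 with genes of a mean TPM of at least 1 and 9.22 without replicate 2. Their share of TPM, 2.86%, was 2.81% with posterior mean TPM, 3.84% with protein-coding genes other than globins as the denominator, 1.91% without the genes that have a near-identical copy and 3.18% with the copies added; the choices on copies were made after seeing the data. With that denominator complexes II, III, IV and V held 0.168%, 0.78%, 1.17% and 1.71%, and complex III held 0.571% with posterior mean TPM. Of the 2 genes higher in replicate 1, 1 was left with posterior mean TPM and with CPM of expected counts (Atp5o; Cox6b2 was lost), and 1 without the genes that have a copy (Cox6b2; Atp5o has a copy). With spike-in centring the median absolute log2 ratio was 0.45. On CPM of expected counts, which keep gene length, the median absolute distance of genes from their complex median in log2 was 0.22 for complex II, 0.21 for complex III and 0.84 for complex V, against 0.47, 0.66 and 0.36 on TPM. Only 2 libraries, each from 1 cell-equivalent of RNA, limit every value. No paired analysis was possible because both libraries belong to 1 group.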
